A study of Arabidopsis thaliana with 16 samples.

Results

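The genes described here are 48 nuclear genes of photosynthesis, measured in callus cells of Arabidopsis thaliana kept in closed canisters without light. They encode the light-harvesting antennae (LHCA and LHCB), subunits of photosystem I (PSA) and photosystem II (PSB), plastocyanin and the Rieske protein (PETE and PETC), the small subunit of Rubisco (RBCS), Rubisco activase (RCA) and the chloroplast glyceraldehyde-3-phosphate dehydrogenases (GAPA and GAPB). Their probe sets were found by locus, through the annotation of the array, and no measured value entered that step. The list itself was chosen with earlier results of these data known. The 48 loci lie on 42 of the 22687 probe sets that were tested. There were 5 probe sets that covered several loci of a family, such as the 1 probe set of RBCS1A, RBCS1B, RBCS2B and RBCS3B (At1g67090, At5g38430, At5g38420 and At5g38410), so these loci cannot be read apart, and each such probe set was counted once.

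Photosynthesis needs proteins from both genomes of a green cell. The nucleus encodes the antennae, many photosystem subunits and the small subunit of Rubisco, and the plastid encodes the photosystem reaction centre proteins and the large subunit of Rubisco. In seedlings the nuclear genes are switched on by light through phytochromes, cryptochromes and factors such as HY5 and GLK1, and they are held low in darkness, in roots and by abundant sugar. Callus is a mass of dividing cells without leaf organisation, and in the dark its plastids are not green.

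Cells of wild type Col-0 (WT) and of an HSFA2 knockout line (HSFA2 KO, a T-DNA insertion in the heat shock factor gene HSFA2), both derived from hypocotyls, grew on sucrose medium in closed canisters (BRIC) without light. The light given to the cultures before that is not stated in the sources used here. Plates were flown to the International Space Station and fixed after 10 days in orbit, or kept on the ground and fixed 48 h later in the same hardware. The 4 groups were HSFA2 KO in spaceflight (FHsf, 3 arrays), HSFA2 KO on the ground (GHsf, 3 arrays), WT in spaceflight (FWt, 4 plates) and WT on the ground (GWt, 4 plates). Each genotype was 1 culture line, and all HSFA2 KO plates sat in canister B while WT plates sat in canisters A and B, so genotype cannot be told apart from the culture line and, in part, from the canister. The titles of the GHsf arrays B3 and B3-2 name 1 plate but a second label names different plates. They were kept apart, and calls that involve GHsf are also given without both, which leaves 1 GHsf array, B5-2, assumed to vary like the other groups. The names of 5 arrays carry the suffix 2 (FHsf B3-2, GHsf B3-2 and B5-2, and the second array of each WT plate A1). The titles write it as Rep2 and hold a matching Rep1 for WT plate A1 and GHsf B3, but do not say what a repeat is. The suffix was therefore tried as a term in the fit and by leaving those arrays out, with GHsf B3 the 1 GHsf array left. P-values measure the spread between plates or arrays of 1 line. If B3 and B3-2 are 1 plate, those of comparisons with GHsf rest partly on the spread between arrays of 1 plate. In bulk RNA fewer cells with a transcript and less transcript per cell cannot be told apart.

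The targeted gene was as labelled. The HSFA2 probe set had signals of 34.5 to 170 in FHsf and 7.38 to 76.5 in GHsf, against 5362 to 9180 in FWt and 3187 to 6291 in GWt. Signals are MAS5 values, a linear brightness per probe set scaled to the same trimmed mean on each array. On the 16 arrays the lower quartile of all probe sets ran from 16.2 to 33.3, the median from 68.7 to 123 and the upper quartile from 287 to 349. Probe sets differ in how strongly they bind, so a signal is set here against these points of its own array and not against another gene. Of the marker lists, 3 of 12 callus and root meristem markers were above the array median on all 16 arrays, among them LBD16 and WIND1, and 5 of the 12 were above it on fewer than 4 arrays. The share above it on all arrays, 25%, is below the 29.2% of all probe sets. None of 8 shoot and leaf identity markers, 8 xylem markers and 5 epidermis and stomata markers was.

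Most nuclear photosynthesis genes gave dim signals in every group. Over the 14 plates or arrays the median signal of the 42 probe sets was 49.5, against 94.4 for all probe sets tested. Of the 42, 3 were above the array median on all 16 arrays (7.14%, against 29.2% of all probe sets tested) and 22 were above it on fewer than 4 arrays (52.4%, against 38.1%). Signals dropped below the lower quartile on at least 1 array for 36 of the 42 (85.7%, against 62.6% of all probe sets tested). These shares describe the list and were not tested.

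The genes above the median on all 16 arrays were LHCB5, LHCA4 and RCA. LHCB5 (At4g10340) encodes CP26, an antenna protein that sits between the photosystem II core and the outer antenna, and its signals of 1118 to 3130.3 were above the upper quartile on all 16 arrays. LHCA4 (At3g47470), a photosystem I antenna protein, was also above the upper quartile on all 16 arrays, with signals of 347 to 700.1. RCA (At2g39730), which keeps Rubisco active, had signals of 101 to 297. Next came LHCB4.2 (At3g08940) and LHCB4.1 (At5g01530), both encoding CP29, another minor antenna, which were above the median on 15 and 14 arrays. PSAD2 (At1g03130), a subunit at the ferredoxin docking site of photosystem I, was above the median on 15 arrays, and PSAF (At1g31330), at the plastocyanin docking site, on 13.

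**Figure D1:**
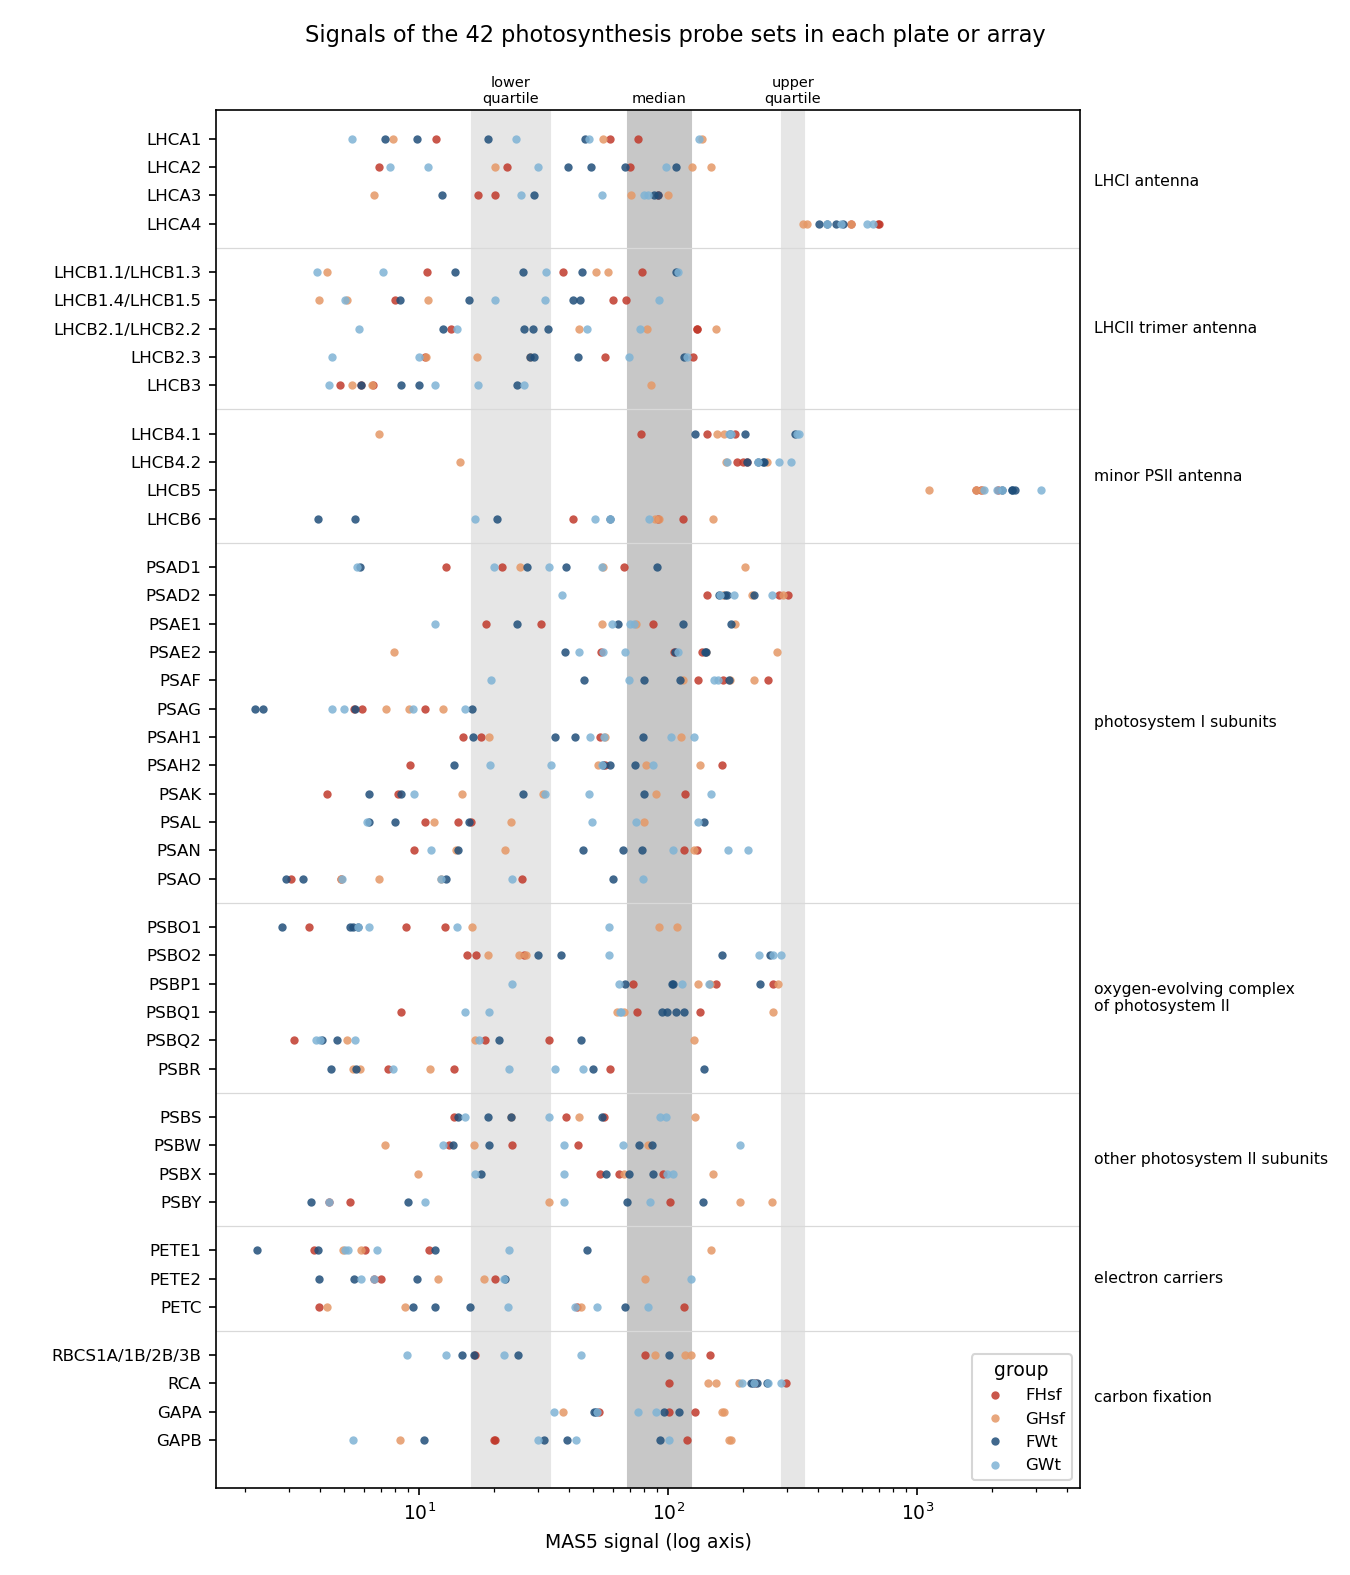
MAS5 signals (log axis) of the 42 probe sets, 1 row each by role, with 1 point per plate or array, coloured by group; grey bands show the range over arrays of the lower quartile, median and upper quartile. LHCB5 and LHCA4 lie above the upper quartile in all 4 groups, and the rows of most other genes spread from below the lower quartile to about the median in each group.

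The dim members held whole functional classes. All 3 probe sets of the electron carriers were above the array median on fewer than 4 arrays. Plastocyanin, the copper protein that carries electrons to photosystem I, has the genes PETE1 (At1g76100) and PETE2 (At1g20340), and each was below the lower quartile on 13 of 16 arrays, and PETC on 7. The trimeric antenna of photosystem II, normally the most abundant antenna of a leaf, had 4 of 5 probe sets above the array median on fewer than 4 arrays, and LHCB3 (At5g54270) was above the array median on none of the 16 arrays. PSAG (At1g55670), which helps bind the photosystem I antenna, was below the lower quartile on 15 arrays and had signals of 2.19 to 16.3. The RBCS probe set ran from 8.89 to 147.

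The spread between plates was wide for the dim genes and narrow for LHCB5 and LHCA4. The residual SD between plates of a group was 0.26 on the log2 scale for LHCB5 and 0.26 for LHCA4, and 0.39 for RCA. For the 31 members with a mean below the median of all probe sets it had a median of 1.47, close to the 1.51 of all probe sets that dim, and for the 11 above it a median of 0.91, against 0.43. PSBY (At1g67740), a small photosystem II protein, had the largest, at 2.17. The highest plate of PSAG was 7.43-fold above the lowest, of PETE1 66.1-fold and of PSBY 71.2-fold.

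A part of this spread was present between arrays of 1 plate. WT plate A1 was run on 2 arrays in each environment. For the 31 dim members the arrays of plate A1 differed by a median of 3.29-fold in FWt and 3.54-fold in GWt, and 19 and 21 of them differed by over 2-fold. For the 11 brighter members these medians were 1.32-fold and 1.397-fold. The GHsf arrays named for plate B3 differed by a median of 2.52-fold for the dim and 2.09-fold for the brighter members, against 1.34-fold for all brighter probe sets. LHCB4.1 had a signal of 6.86 on array B3 and 167 on B3-2, LHCB4.2 had 14.6 and 249.7, and PSAE2 (At2g20260), a photosystem I subunit, had 273.9 and 7.89. LHCB4.1 and LHCB4.2 are separate probe sets of separate loci, and B3 was the lowest of the 14 values for both.

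**Figure D2:**
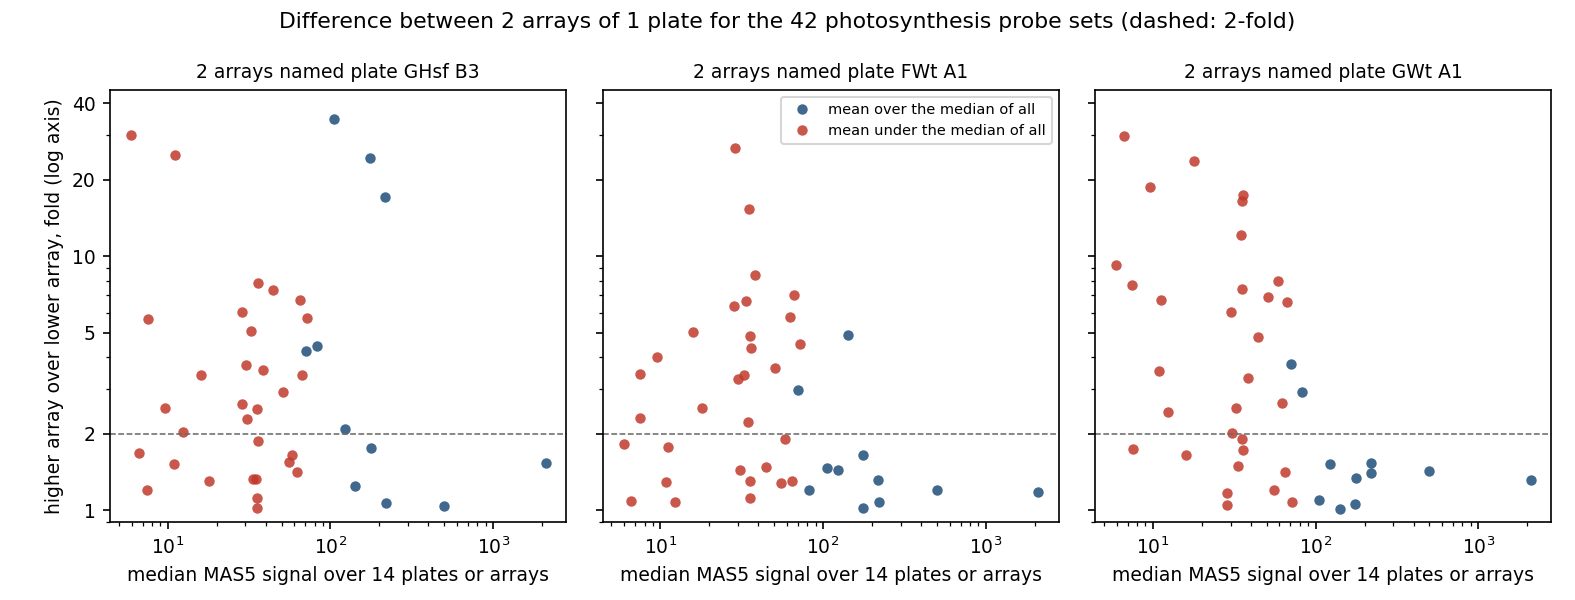
Fold difference between 2 arrays of 1 plate (higher over lower, log axis) against the median signal (log axis) for the 42 probe sets, for the plates named GHsf B3, FWt A1 and GWt A1. Dim members (red) scatter up to 29.9-fold, and brighter ones (blue) mostly lie under the dashed 2-fold line on WT plate A1 but not for GHsf B3.

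FWt : GWt asked which genes differ in WT cells between spaceflight and the ground. None of the 42 probe sets passed the limits, which were a limma p below 0.01 before adjustment together with a change of more than 2-fold. Of all probe sets, 0.807% passed. At an unadjusted p under 0.05 in limma there was 1 member, LHCB6, and 4.39% of all probe sets. The smallest adjusted p over the members was 1.00. The median log2 fold change of the members was -0.07, against -0.03 over all probe sets, with 19 above 0 and 23 below. Single members ran from -1.83 to 1.65, with a median SE of 0.88.

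LHCB6 (At1g15820) encodes CP24, the minor antenna that links trimers to photosystem II. Its signals were 58.4, 3.93, 5.51 and 20.6 in FWt plates A1, A2, B1 and B2, against 16.7, 50.9, 84.0 and 58.4 in GWt plates A1, A2, B1 and B2. The groups overlapped, since FWt A1 was above GWt A1 and A2, and FWt B2 above GWt A1. The log2 fold change was -1.83 (SE 0.80, adjusted p = 1.00), and -2.57 without FWt plate A1, which passed the limits. It also passed with WT plates of canister B only (-2.72) and with a term for the suffix 2 (-2.32). PSBQ1 (At4g21280), an extrinsic subunit of the oxygen-evolving complex, was the only member whose FWt and GWt plates did not overlap, as did 3.07% of all probe sets. It had 116, 98.8, 94.6 and 107 in FWt, against 15.3, 63.8, 64.4 and 19.1 in GWt, a difference of 1.65 on the log2 scale (SE 0.83, adjusted p = 1.00) that did not pass. The brightest members did not pass. LHCB5 had a log2 fold change of 0.05 (SE 0.23), LHCA4 had -0.28 (SE 0.23) and RCA -0.06 (SE 0.30).

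FHsf : GHsf asked the same of HSFA2 KO cells. There 1 of the 42 members passed, PSBO1, which fell; this is 2.38% of the members, against 1.51% of all probe sets in either direction and 0.961% lower. The median log2 fold change of the members was -0.29, against -0.07 over all probe sets, with 16 above 0 and 26 below. PSBO1 (At5g66570) encodes the major form of the manganese-stabilising protein of photosystem II, which shields the cluster that splits water. Its signals were 3.59, 8.82 and 12.7 in FHsf arrays B3-2, B4 and B5, against 16.3, 92.1 and 108 in GHsf arrays B3, B3-2 and B5-2. The FHsf arrays were all below the GHsf arrays, but all 6 lay under or within the range of the array medians, and B3 and B3-2, named for 1 plate, were 5.66-fold apart. Mean log2 signals were 2.88 ± 0.94 in FHsf and 5.77 ± 1.51 in GHsf (SD, n = 3 each). The log2 fold change was -2.89 (SE 0.92, adjusted p = 0.610), and an exact two-sided permutation test over arrays gave p = 0.1, the smallest that 3 against 3 allow.

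The PSBO1 call did not survive leaving out most single plates. It was lost without FHsf B3-2 (-2.37), FHsf B4 (-3.01), GHsf B3-2 (-2.51) or GHsf B5-2 (-2.39), and, with the same fold change, without any 1 of the 4 FWt plates or GWt B2. Without both GHsf arrays named for plate B3 it was -3.87 and passed. Both high GHsf values are from arrays with the suffix 2, and so is the lowest FHsf value, that of B3-2. With the suffix as a term in the fit the log2 fold change was -2.71 and did not pass, and without those arrays it was -0.62. In FWt, PSBO1 had 5.68, 5.39, 2.81 and 5.28, against 5.66, 57.7, 6.25 and 14.2 in GWt, a difference of -1.50 on the log2 scale (SE 0.80, adjusted p = 1.00). The interaction of genotype and environment was -1.39 (SE 1.22, adjusted p = 0.999), so the spaceflight difference of PSBO1 was not shown to differ between HSFA2 KO and WT cells.

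LHCA4 was the steadiest of the other members with a small p. Its signals were 542, 700.1 and 697 in FHsf, against 361, 347 and 542 in GHsf. The FHsf arrays were not below any GHsf array, but FHsf B3-2 and GHsf B5-2 were nearly equal. The log2 fold change was 0.65 (SE 0.27, adjusted p = 0.686), under the limit on size. In WT cells it was -0.28 (SE 0.23), with 473, 434, 402 and 503 in FWt against 664.5, 628, 493 and 433 in GWt. The interaction for LHCA4 was 0.93 (SE 0.36, adjusted p = 0.999) and did not pass; it was 0.52 without both GHsf arrays named for plate B3, and 1.13 without GHsf B5-2, which passed. At an unadjusted p under 0.05 in limma there were 3 members, and 6.89% of all probe sets. Groups of the 2 environments did not overlap for 2 of 42 members in HSFA2 KO cells, LHCA4 and PSBO1 (13.0% of all probe sets).

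LHCB1.4/LHCB1.5, a probe set of the trimeric antenna (At2g34430 and At2g34420), had 67.8, 7.99 and 59.9 in FHsf, against 3.94, 5.14 and 10.9 in GHsf. Its log2 fold change was 2.40 (SE 1.09, adjusted p = 0.723), and the groups overlapped through FHsf B4, without which it passed (3.40). PSBY had 102, 4.35 and 5.27 in FHsf, against 33.1, 260.2 and 194 in GHsf, a log2 fold change of -3.16 with an SE of 1.65 (adjusted p = 0.752). This was the largest difference of any member in this comparison, and its error was the largest as well. Among photosystem I subunits PSAE1 (At4g28750), near the ferredoxin docking site, had the smallest p over all comparisons, in the interaction of genotype and environment. It had 86.6, 30.8 and 18.5 in FHsf, against 54.3, 185 and 74.4 in GHsf, and 24.7, 63.0, 115 and 178 in FWt, against 59.3, 72.9, 70.1 and 11.6 in GWt. Its log2 fold changes were -1.31 (SE 0.90) in HSFA2 KO cells and 0.79 (SE 0.78) in WT cells, and the interaction was -2.10 (SE 1.20, adjusted p = 0.999), none of which passed. None of the 12 photosystem I probe sets passed in any comparison.

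GHsf : GWt compared the genotypes on the ground, where 2 of 42 members passed (4.76%, against 2.46% of all probe sets). PSBO2 was lower in GHsf and the RBCS probe set was higher; over all probe sets 0.934% were lower and 1.53% higher. The median log2 fold change of the members was 0.27, against 0.12 over all probe sets. After quantile normalization, which moved the median of all probe sets in this comparison to -0.01, the members' median was -0.03, so the members as a list had no stable direction. At an unadjusted p under 0.05 in limma there were 5 members, and 10.7% of all probe sets. Groups did not overlap for 6 of 42 members, and for 13.2% of all probe sets.

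PSBO2 (At3g50820), the second gene of the manganese-stabilising protein, was the member with the smallest p in any comparison. Its signals were 18.8, 25.1 and 26.9 in GHsf arrays B3, B3-2 and B5-2, against 232, 285, 57.7 and 263 in GWt plates A1, A2, B1 and B2. The 3 GHsf arrays were close together and near the lower quartile, and 3 of 4 GWt plates were well above the median. Mean log2 signals were 4.54 ± 0.27 in GHsf (SD, n = 3) and 7.48 ± 1.09 in GWt (SD, n = 4). PSBO2 fell by 2.93 on the log2 scale in GHsf (SE 0.77), with a limma adjusted p of 0.219. The exact two-sided permutation test over GHsf arrays and GWt plates gave p = 0.0571.

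PSBO2 had the same direction in spaceflight. Signals were 16.8, 15.5 and 26.3 in FHsf, against 36.9, 29.999, 256 and 164 in FWt. All 6 HSFA2 KO arrays were below all 8 WT plates, with plate A1 taken as the mean of its 2 arrays. In FWt these 2 arrays of A1 differed by 6.68-fold, so the separation holds for plate means and not for every WT array. The log2 fold change for FHsf : FWt was -2.12 (SE 0.77, adjusted p = 0.513) and did not pass, the 2 FWt plates of canister A being close to the HSFA2 KO arrays. With WT plates of canister B only, where all HSFA2 KO plates sat, it was -3.43 in spaceflight and -2.40 on the ground. The spaceflight difference also passed without FWt A1 (-2.51), FWt A2 (-2.61) or GWt B1. The ground call was lost without GHsf B3 (-2.78), without both arrays named for plate B3 (-2.73) and without the arrays with the suffix 2 (-3.31). It stood in the other 22 of 25 alternatives. Among these are the fits without a single FHsf or FWt plate, which cannot move its log2 fold change of -2.93. At an adjusted p under 0.05 the ground call did not pass.

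The probe sets of PSBO1 and PSBO2 carried opposite signs in this comparison. PSBO1 had a log2 fold change of 2.06 in GHsf : GWt (SE 0.86, adjusted p = 0.419), with 16.3, 92.1 and 108 in GHsf against 5.66, 57.7, 6.25 and 14.2 in GWt. The groups overlapped and it did not pass, except without GWt A2 (2.78) or GHsf B3 (2.93). Of the other subunits of the oxygen-evolving complex, PSBP1 (At1g06680) had 1.31 (SE 0.67), PSBQ1 1.64 (SE 0.89), and PSBQ2 and PSBR did not pass either. With a term for the suffix 2 PSBQ1 passed, at 3.26.

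The RBCS probe set had 88.3, 117 and 123 in GHsf, against 22.0, 8.89, 44.7 and 12.8 in GWt. The groups did not overlap, and the GHsf arrays lay near the array medians. It rose by 2.57 on the log2 scale (SE 0.83, adjusted p = 0.309; exact permutation p = 0.0571). The unadjusted p lay just inside the limit, and the call was lost in 19 of 25 alternatives, in 10 of which a single plate was left out. These were FHsf B3-2, FWt A2, B1 or B2, GHsf B3, B3-2 or B5-2, and GWt A1, A2 or B2, with log2 fold changes of 2.22 to 2.71. It was also lost without both arrays named for plate B3 (2.75) and with these averaged (2.61). In spaceflight RBCS had 80.3, 147 and 16.8 in FHsf, against 101, 16.6, 24.8 and 14.8 in FWt, with a difference of 1.06 on the log2 scale (SE 0.83, adjusted p = 0.800).

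**Figure D3:**
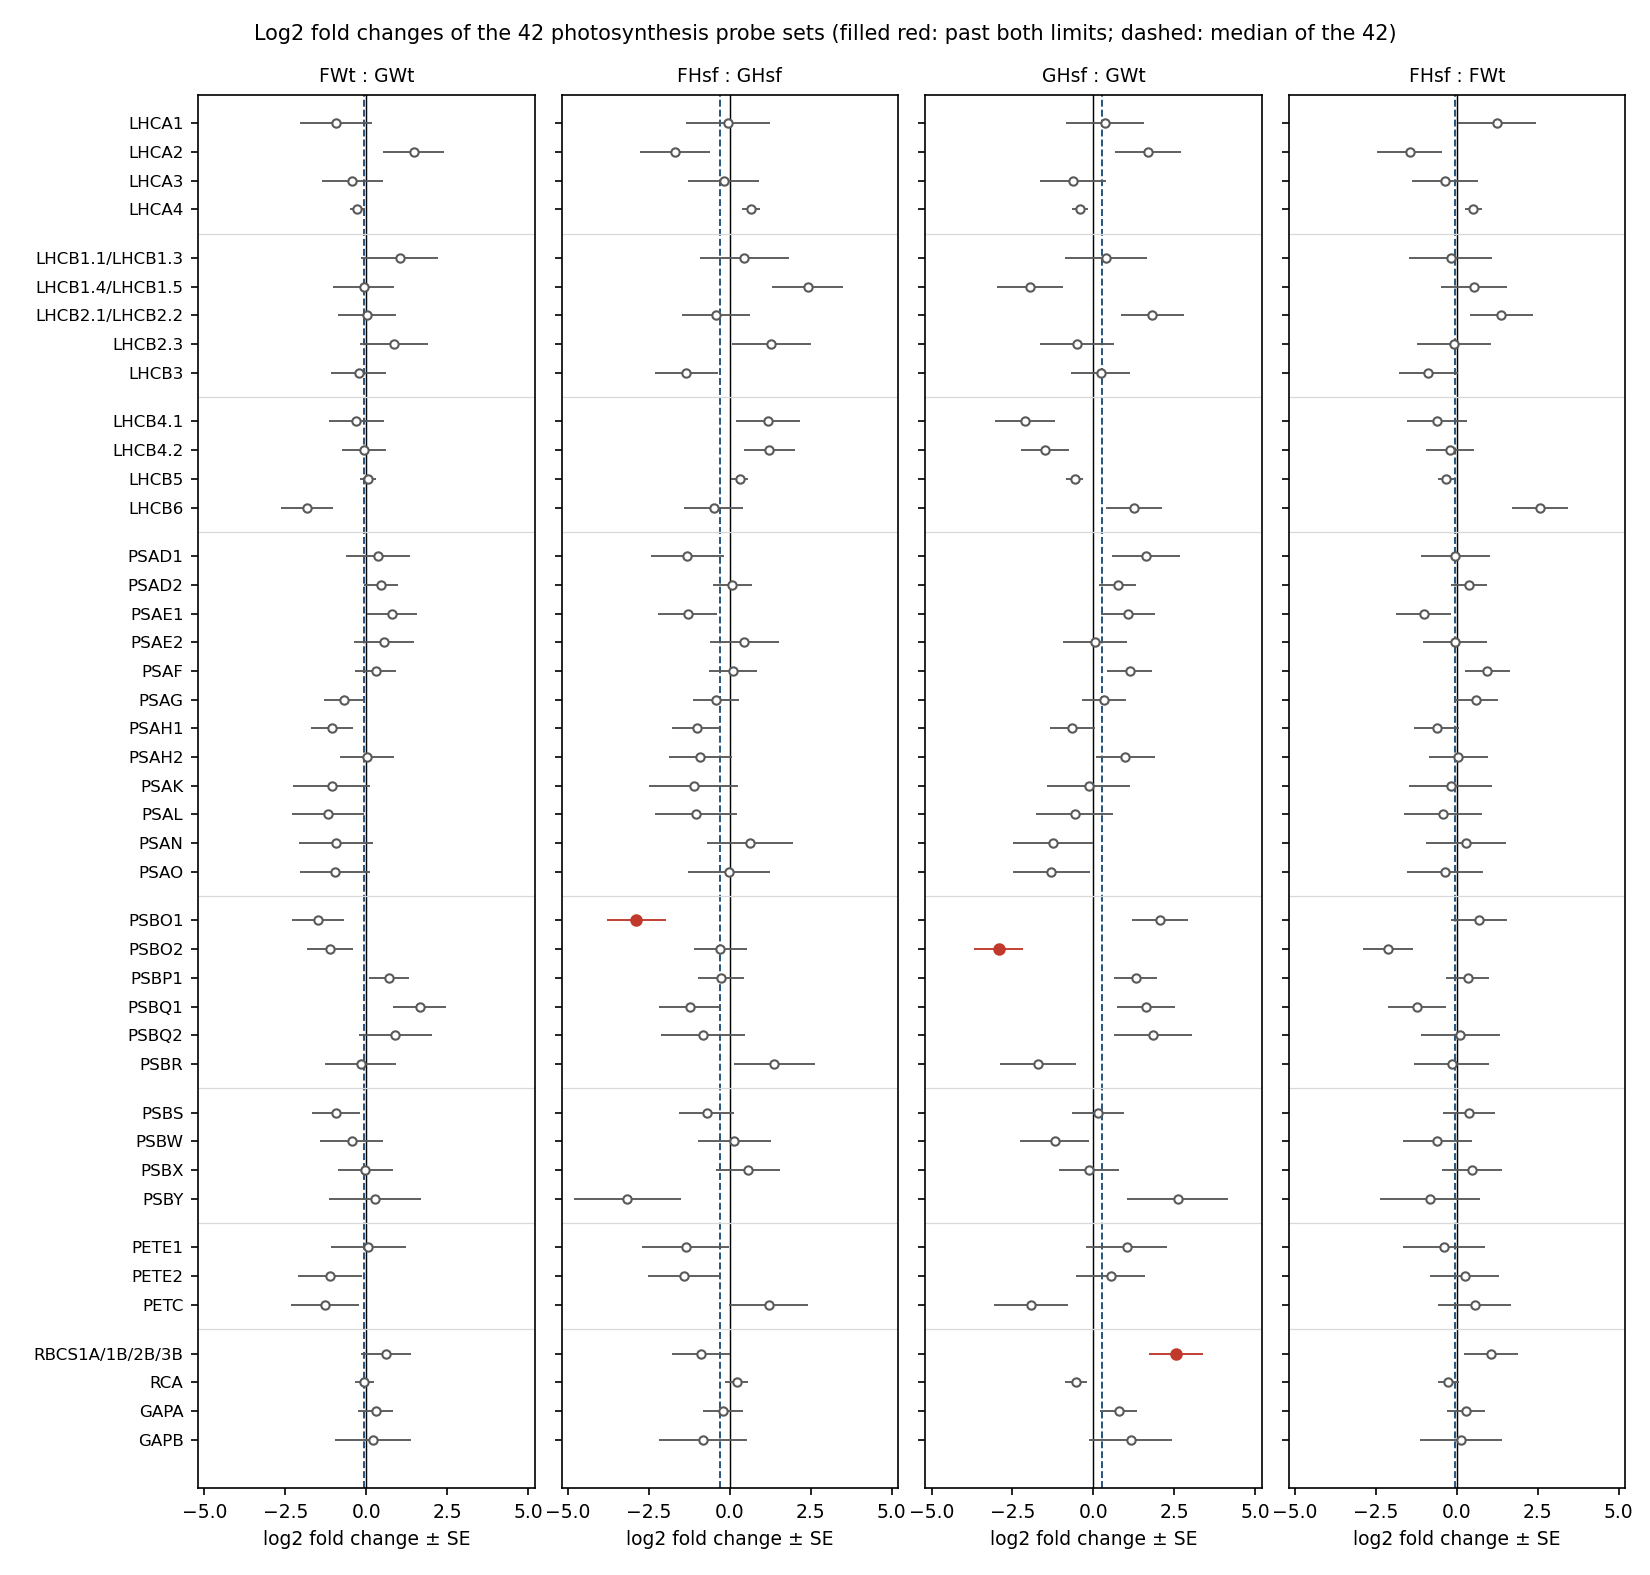
Log2 fold change ± SE (x axis) of the 42 probe sets, 1 row each, in the 4 comparisons; filled red points passed both limits and the dashed line is the median of the 42. PSBO1 passed in FHsf : GHsf, PSBO2 and the RBCS probe set passed in GHsf : GWt, and none passed in the other comparisons.

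LHCB5, the brightest member, was lower on every HSFA2 KO array than on any WT plate of the same environment, by less than the limit on size. It had 1118, 1716 and 1820.4 in GHsf, against 2088, 3130.3, 2193 and 1857 in GWt. In spaceflight it had 2109.7, 1804 and 1720.2 in FHsf, against 2397, 2469, 2180.1 and 2391 in FWt. The log2 fold changes were -0.58 (SE 0.25, adjusted p = 0.439) on the ground and -0.33 (SE 0.25, adjusted p = 0.791) in spaceflight, and neither passed. The exact permutation test gave p = 0.0571 on the ground and p = 0.0286 in spaceflight, the smallest that 3 against 4 allow. In spaceflight the genotypes did not overlap for 4 of 42 members, LHCB5 among them, and for 2378 of all 22687 probe sets. Without both arrays named for plate B3, the ground value was -0.32. RCA had 145, 155 and 191 in GHsf, all below the 198 to 283 of GWt, and a difference of -0.54 on the log2 scale (SE 0.33, adjusted p = 0.596).

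The sizes of the LHCB4.1 and LHCB4.2 differences depended largely on 1 array. LHCB4.1 had 6.86, 167 and 157 in GHsf, against 175, 329.5, 333 and 179 in GWt, a difference of -2.10 on the log2 scale (SE 0.92, adjusted p = 0.444). LHCB4.2 had 14.6, 249.7 and 169.7 in GHsf, against 173, 312, 228 and 278 in GWt, a difference of -1.51 on the log2 scale (SE 0.74, adjusted p = 0.505). The low values are both of array B3, and neither passed in the main fit. The GHsf values of LHCB4.1 were all below those of GWt. LHCB4.2 passed with GHsf B3 and B3-2 averaged (-1.26) and without GHsf B3-2 (-2.28). LHCB4.1 passed with an intensity trend in limma (-2.10). Array B3 is part of each of these fits. With a term for the suffix 2 in the fit both passed, at -3.71 and -2.82, and without the arrays with the suffix 2, where B3 is the 1 GHsf array, they had -5.15 (adjusted p = 0.0439) and -4.13 (adjusted p = 0.0118). Without GHsf B3 they had -0.58 and -0.23, and without both arrays named for plate B3 -0.63 and -0.51, and did not pass.

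FHsf : FWt compared the genotypes in spaceflight, and none of the 42 members passed, against 1.75% of all probe sets. At an unadjusted p under 0.05 in limma there were 2 members, LHCB6 and PSBO2, and 7.93% of all probe sets, and the smallest adjusted p was 0.462. The median of the members was -0.05, against 0.07 over all probe sets. LHCB6 had 90.6, 115 and 41.6 in FHsf, against 58.4, 3.93, 5.51 and 20.6 in FWt. It overlapped through FWt A1, and its log2 fold change was 2.57 (SE 0.86, adjusted p = 0.462). It passed without FWt A1 (3.31) or GWt A1, after quantile normalization (2.40), with an offset of 32 (1.12), with a term for the suffix 2 (2.75) and with WT plates of canister B only (2.83). On the ground its groups did not overlap, with 151, 92.0 and 88.2 in GHsf against the GWt values given above, and the log2 fold change was 1.24 (SE 0.86, adjusted p = 0.642). PETC (At4g03280), the Rieske protein of the cytochrome b6f complex, showed no separation in any comparison. It had 3.94, 116 and 43.2 in FHsf, 8.72, 44.4 and 4.24 in GHsf, 67.2, 9.43, 11.5 and 16.03 in FWt, and 22.7, 42.2, 82.8 and 51.6 in GWt. Its smallest p was that of GHsf : GWt (log2 fold change -1.93, SE 1.14).

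**Figure D4:**
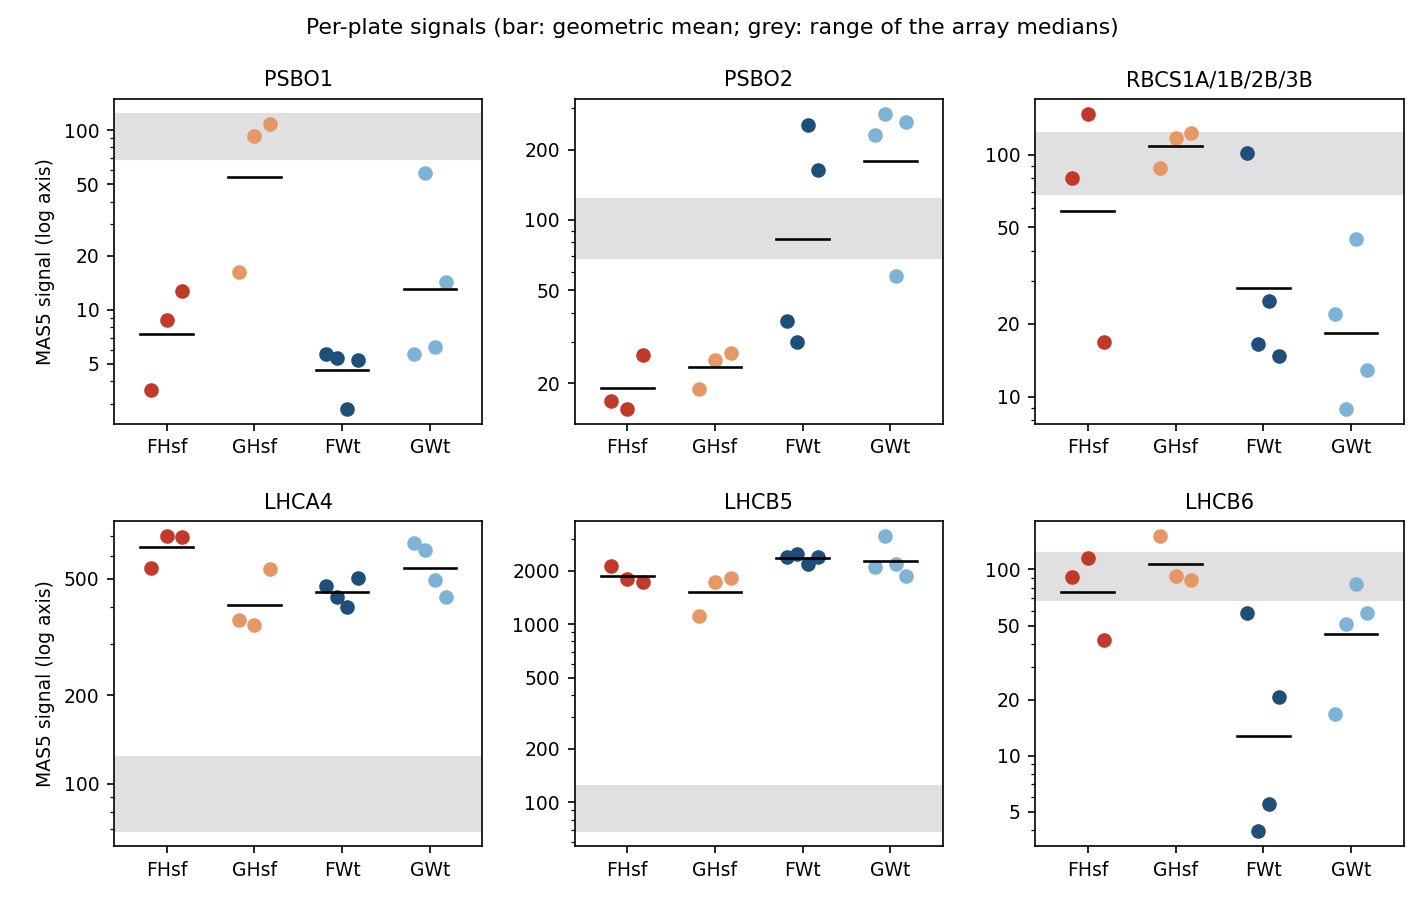
MAS5 signals (log axis) per plate or array of 6 members in the 4 groups; bars are geometric means and the grey band is the range of the array medians. All HSFA2 KO points of PSBO2 lie below all WT points, PSBO1 and RBCS points lie mostly under or in the grey band, and LHCB5 points of HSFA2 KO lie just below those of WT in each environment.

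The interaction of genotype and environment passed for none of the 42 members, against 1.02% of all probe sets, with 3 members at an unadjusted p under 0.05 in limma (4.74% of all probe sets). These were LHCA4, PSBQ1 (-2.88, SE 1.26, adjusted p = 0.999) and LHCA2 (At3g61470; -3.16, SE 1.44, adjusted p = 0.999), a photosystem I antenna gene whose probe set also covers At5g28450. LHCA2 had 6.86, 70.04 and 22.6 in FHsf, 20.2, 148 and 124 in GHsf, 39.5, 66.9, 49.1 and 107 in FWt, and 29.99, 10.8, 7.66 and 97.7 in GWt. The members were split 21 above 0 and 21 below.

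Genes related to the members were read from lists of other thylakoid proteins, chlorophyll synthesis, light and plastid regulators, the Calvin cycle and photorespiration. Few of them passed. In FHsf : FWt, 1 of 25 chlorophyll synthesis genes rose (4%, against 1.18% of all probe sets), GUN4, a regulator of magnesium chelatase. It had 12.8, 66.5 and 17.5 in FHsf, against 4.42, 1.78, 2.59 and 3.44 in FWt, a difference of 3.09 on the log2 scale (SE 0.68, adjusted p = 0.248). All FHsf arrays were above all FWt plates. Every value was below the median of its array, and on 15 of 16 arrays GUN4 was below the lower quartile. GUN4 had the smallest p of the list in FHsf : GHsf (1.86, adjusted p = 0.670) and in the interaction (2.69, adjusted p = 0.999) as well, and did not pass there. The brighter CHLM, which methylates magnesium protoporphyrin, had 399, 499 and 412 in GHsf, against 735, 744, 856 and 657 in GWt. It had 376, 296 and 323 in FHsf, against 481, 503, 505 and 777 in FWt. The log2 fold changes of -0.78 (SE 0.24, adjusted p = 0.283) on the ground and -0.75 (SE 0.24, adjusted p = 0.429) in spaceflight were under the limit on size, with no overlap of the genotypes in either environment. On the ground, groups did not overlap for 3 of the 25 genes and for 13.2% of all probe sets. In spaceflight the genotypes did not overlap for 4 of the 25 genes and for 2378 of all 22687 probe sets. Without both arrays named for plate B3 the ground value of CHLM was -0.86. In FWt : GWt the smallest p was that of HEME1, of the tetrapyrrole pathway (-1.53, adjusted p = 1.00).

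Of 27 other thylakoid genes, 1 rose in FHsf : FWt (3.70%, against 1.18% of all probe sets), PSB28, a factor of photosystem II assembly. It had 57.5, 199 and 56.6 in FHsf, against 22.8, 3.79, 4.13 and 19.5 in FWt, a difference of 3.24 on the log2 scale (SE 0.98, adjusted p = 0.400). In FHsf : GHsf 1 of the 27 fell (3.70%, against 0.961% of all probe sets), ATPD, the delta subunit of the chloroplast ATP synthase. It had 31.6, 10.9 and 34.9 in FHsf, against 127, 158 and 94.4 in GHsf, a difference of -2.43 on the log2 scale (SE 0.64, adjusted p = 0.502), and its interaction of -2.43 (adjusted p = 0.999) did not pass. Without both arrays named for plate B3 the ATPD call was lost (-2.04). PSB27, another photosystem II assembly factor, had 9.42 on GHsf array B3, the array with the low LHCB4.1 and LHCB4.2 values, and 147 to 437 on every other plate. It had the smallest p of the list in GHsf : GWt (-2.08, adjusted p = 0.402), and LHCB7, a rare antenna gene, had it in FWt : GWt (1.86, adjusted p = 1.00).

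Of 23 light and plastid regulators, 2 fell in FHsf : GHsf (8.70%, against 0.961% of all probe sets). HYH, a bZIP factor close to HY5, had 1.62, 3.09 and 1.67 in FHsf, against 5.55, 38.3 and 15.9 in GHsf (log2 fold change -2.88, SE 0.81, adjusted p = 0.561). In FHsf : FWt it had -2.25 (adjusted p = 0.471) and did not pass. Signals of HYH were below the lower quartile on 12 of 16 arrays and above the median on none. SIG5, a sigma factor of the plastid polymerase, had 30.2, 15.1 and 3.33 in FHsf, against 93.8, 109 and 108 in GHsf (log2 fold change -3.17, SE 1.03, adjusted p = 0.620). Both calls were lost without both arrays named for plate B3, with log2 fold changes of -2.97 for HYH and -3.23 for SIG5, and that of SIG5 also with these averaged (-3.18). GUN1, a protein of plastid-to-nucleus signalling, was bright. It had 1353, 2117 and 2211 in GHsf, against 1137, 681, 1066 and 962 in GWt, and its log2 fold change of 0.97 (SE 0.32, adjusted p = 0.312) did not pass, nor did the 1.23 without both arrays named for plate B3. PIF5, a phytochrome-interacting factor, and CGA1, a GATA factor of greening, had the smallest p of the list in FWt : GWt (-2.24, adjusted p = 1.00) and in the interaction (-4.15, adjusted p = 0.999) and did not pass.

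**Figure D5:**
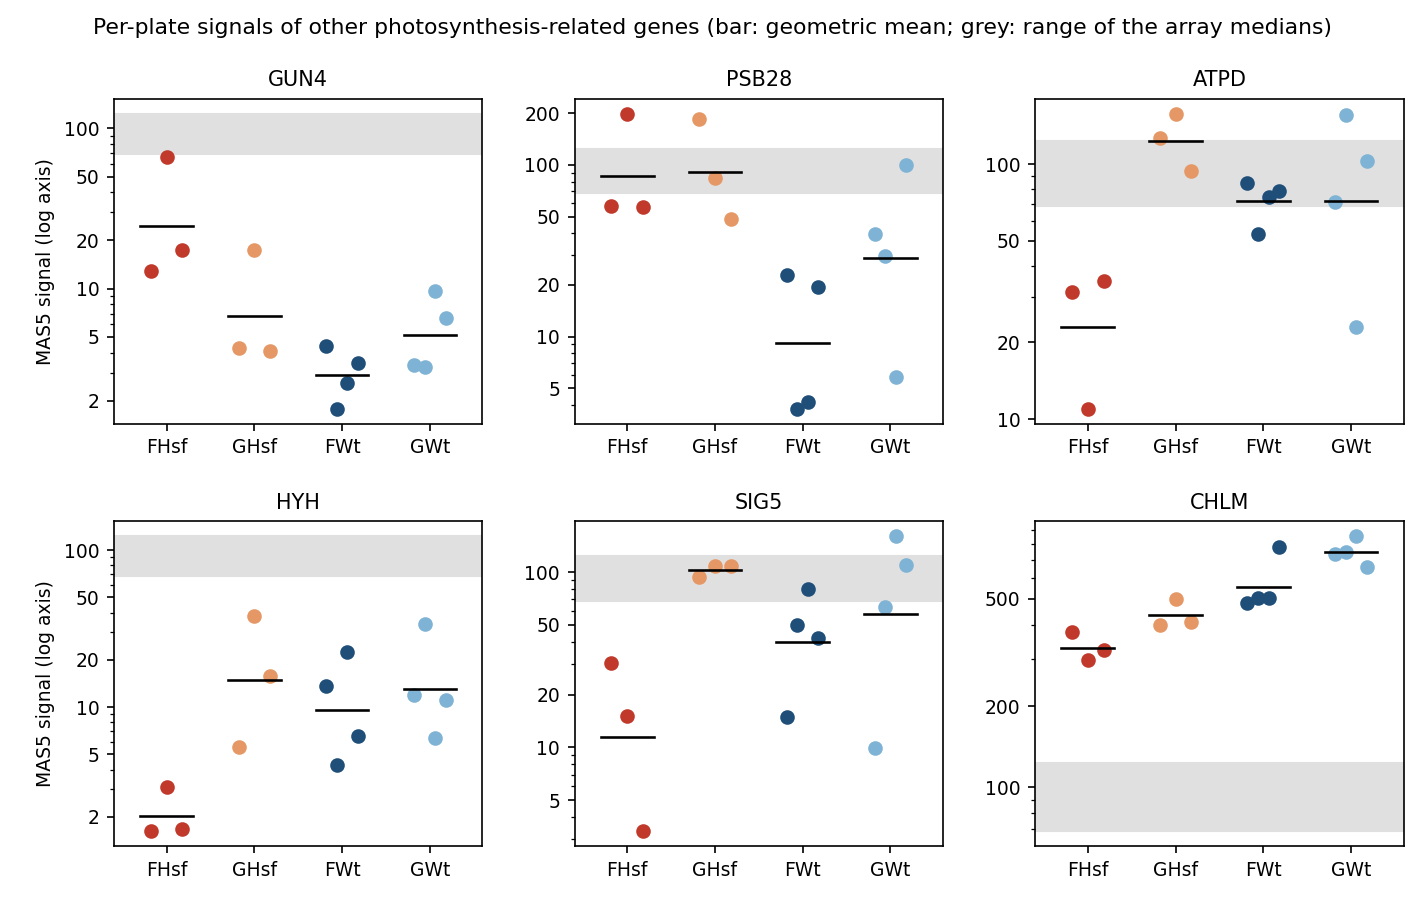
MAS5 signals (log axis) per plate or array of 6 related genes in the 4 groups; bars are geometric means and the grey band is the range of the array medians. GUN4 and HYH stay below the grey band in all groups, while CHLM lies above it and is lower in HSFA2 KO than in WT cells in each environment.

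None of 28 other Calvin cycle and photorespiration probe sets passed in the 4 comparisons or the interaction, and 7 of them were above the array median on all 16 arrays (25%, against 29.2% of all probe sets). Of these, TKL1, a transketolase, had a log2 fold change of -0.93 in FHsf : FWt (SE 0.31, adjusted p = 0.458). GLYK, glycerate kinase, had 0.76 in FHsf : GHsf (SE 0.29, adjusted p = 0.659). GAPA2, a further subunit of chloroplast glyceraldehyde-3-phosphate dehydrogenase, had 63.5, 71.5 and 171 in GHsf, against 29.7, 58.9, 24.2 and 44.1 in GWt (log2 fold change 1.31, SE 0.45, adjusted p = 0.321). Without both arrays named for plate B3, with GHsf B5-2 alone, it passed at 2.21. It had the smallest p of the list in FWt : GWt (0.89, adjusted p = 1.00) and in the interaction (-1.29, adjusted p = 0.999) too.

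The 10 probe sets of plastid-encoded photosynthesis genes were mostly brighter than the array median, 7 of them on more than 12 of the 16 arrays, as were 8263 of all 22687 probe sets. PETB, which encodes cytochrome b6, had signals of 1692 to 4979, and PSAA, a core protein of photosystem I, had 5.34 to 209. None of the 10 passed in any comparison. The smallest p in GHsf : GWt, FHsf : FWt and the interaction were those of PETB (log2 fold changes -0.33, 0.41 and 0.74), and in FHsf : GHsf and FWt : GWt those of PSAA (2.09, adjusted p = 0.740, and 1.74, adjusted p = 1.00). All 10 had negative log2 fold changes in GHsf : GWt, with a median of -0.37 and a median SE of 0.90. They share plates, so 10 signs are not 10 independent observations.

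Genes of non-green plastid metabolism, which plastids of roots and callus use, were listed beside them. Of 11 measured, 8 were above the array median on all 16 arrays (72.7%), against 3 of 42 photosynthesis members and 29.2% of all probe sets. These shares were not tested. In FHsf : FWt 1 of the 11 fell (9.09%, against 0.573% of all probe sets), RFNR2, the root-type ferredoxin-NADP reductase. It had 2831, 1404 and 2743 in FHsf, against 4756, 6594, 3911 and 4835 in FWt, and fell by 1.15 on the log2 scale (SE 0.31, adjusted p = 0.345). In FHsf : GHsf it had -1.002 (adjusted p = 0.620) and in the interaction -0.66 (adjusted p = 0.999), and did not pass. GPT2, a sugar phosphate translocator, in FWt : GWt (-2.72, adjusted p = 1.00) and GLT1, a glutamate synthase, in GHsf : GWt (0.79, adjusted p = 0.407) did not pass either.

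Of 8 shoot and leaf markers 1, STM, a homeobox gene of the shoot meristem, rose in FHsf : GHsf and in FHsf : FWt (12.5%, against 0.547% and 1.18% of all probe sets). It had 127, 307 and 326 in FHsf, against 7.84, 118 and 24.5 in GHsf, and 44.1, 82.3, 23.8 and 19.8 in FWt, against 124, 55.7, 194 and 47.4 in GWt. The log2 fold changes were 3.04 (SE 0.92, adjusted p = 0.591) for FHsf : GHsf and 2.69 (SE 0.86, adjusted p = 0.435) for FHsf : FWt. Without both arrays named for plate B3 the value for FHsf : GHsf was 3.25 and passed. The other 7 shoot and leaf markers did not pass in any comparison. YAB3, a leaf polarity factor, had the smallest p of them in FWt : GWt (-2.17, adjusted p = 1.00). Of 12 callus and root meristem markers, 1 fell and 1 rose in GHsf : GWt (against 0.934% lower and 1.53% higher of all probe sets). WIND1, a factor of wound-induced callus, had 854 and 1126 in GHsf B3 and B3-2 and 3638 in GHsf B5-2, against 3541 to 7026 in GWt, and fell by 1.86 on the log2 scale (SE 0.46, adjusted p = 0.189). The groups overlapped through GHsf B5-2, and without both arrays named for plate B3 the log2 fold change was -0.60 and did not pass. LBD16, a factor of callus and lateral root formation, had 373, 1085 and 828 in GHsf, against 450.2, 209, 151 and 273 in GWt, and rose by 1.48 (SE 0.43, adjusted p = 0.269). The groups overlapped through GHsf B3 and GWt A1, and without both arrays named for plate B3 the call was lost (1.73). LBD16 in FWt : GWt (1.18, adjusted p = 1.00) and the interaction (-1.67, adjusted p = 0.999), LBD17 in FHsf : FWt (1.68, adjusted p = 0.673) and SCR in FHsf : GHsf (-1.73, adjusted p = 0.682) did not pass.

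None of the xylem or the epidermis and stomata markers passed. Those with the smallest p were FAMA, a stomatal factor, in FHsf : GHsf (-3.28, adjusted p = 0.620) and GHsf : GWt (1.9995, adjusted p = 0.517), and ATML1, an epidermal factor, in FWt : GWt (2.02, adjusted p = 1.00), FHsf : FWt (-1.997, adjusted p = 0.648) and the interaction (-3.63, adjusted p = 0.999). Of the xylem genes they were XCP1 in FWt : GWt (adjusted p = 1.00) and the interaction (adjusted p = 0.999), XCP2 in FHsf : GHsf (adjusted p = 0.737), CESA7 in GHsf : GWt (adjusted p = 0.586) and VND7 in FHsf : FWt (adjusted p = 0.726). The part of these markers in the values of the photosynthesis members was not tested.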

How the data were processed

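RNA of callus was amplified (Ovation Pico WTA), labelled and hybridized to Affymetrix ATH1 arrays. The authors summarised each probe set as a MAS5 intensity in Expression Console and deposited it unlogged; the genome build behind the annotation is not given in the sources used here. A deposited table also holds log2 fold changes and p-values from comparisons by the authors, which were not used. No detection calls were used, and the number of arrays limits the precision.

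The log2 of each intensity was used with nothing added, and both arrays of each WT plate A1 entered as their mean, which left 14 plates or arrays from 16. Functions lmFit and eBayes of limma 3.58.1 (R 4.3.3) were run on 22687 probe sets with all 4 groups (10 residual and 1.65 prior degrees of freedom); 123 others were not tested. To pass, a probe set needed a limma p below 0.01 before adjustment together with a change of more than 2-fold. Printed adjusted p are Benjamini-Hochberg over all probe sets. Exact permutation tests were run over these plates or arrays, with GHsf B3 and B3-2 as separate units. Figures used matplotlib 3.10.9 (Python 3.11). The procedure was tested on simulated data.

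Members were found through the locus in the array annotation; 2 probe sets that cite a member only in a cDNA title were left out. The members and lists were chosen with earlier results of these data known. Plate values are given for members that passed, for the member with the smallest p in each of the 8 role groups and for further members chosen after their values were seen. In other lists, genes that passed and those with the smallest p in each comparison are named. Alternatives were quantile normalization, an offset of 32, a filter on dim probe sets, averaging or splitting repeat arrays, an intensity trend, only the groups compared, canister, plate position, the suffix 2 of array names, leaving out each plate, and an adjusted p. Promoter motifs were not analysed here.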

Additional observations from a re-analysis of the deposited data

Results flagged for a closer look

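Groups of 4 WT plates were searched for a plate far from the other 3, by the gap to the nearest plate as a share of the group's range with Dixon's 95% limit, for the 42 members and the 9 genes of other lists that passed. Of 102 groups, 5 were past the limit, close to the 1 in 20 (5.1) that chance gives. PSBO2 in GWt had its lowest plate, B1, at a signal of 57.7 with the others at 232 to 285 (share 0.871). PSBO1 in FWt had plate B1 at 2.81 with the others at 5.28 to 5.68 (0.898). PSAE1 in GWt had plate B2 at 11.6 with the others at 59.3 to 72.9 (0.888). LBD16 in FWt had plate B2 at 818 with the others at 479.9 to 513 (0.874), and WIND1 in FWt had plate A1 at 1696 with the others at 2735 to 2952 (0.862).

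The interaction of genotype and environment passed the limits for STM (log2 fold change FHsf : GHsf minus that of FWt : GWt), with 4.35 on the log2 scale (SE 1.22, limma adjusted p = 0.892).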

How the results depend on the processing

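The counts of members that passed moved with the processing. In FHsf : GHsf the count was 0 after quantile normalization, with only probe sets over the median signal (11 members), an intensity trend, only the 2 groups in the fit, a canister term or an adjusted p under 0.05. It was 2 without the arrays with the suffix 2 (LHCB4.1 and LHCB4.2, higher, with GHsf B3 the 1 GHsf array left and assumed to vary like the other groups) and 2 without both GHsf B3 arrays, an alternative chosen after seeing the data that leaves GHsf B5-2 alone on the same assumption (PSBO1 and LHCB3, lower). With a term for the suffix the count was 1, but it was PSBQ1 and not PSBO1. In GHsf : GWt the count was 1 after quantile normalization, with all 16 arrays separate, with WT plates of canister B only and with a canister term; 4 with a suffix term; 3 without the arrays with the suffix 2 (LHCB4.1 and LHCB4.2, lower, with adjusted p of 0.0439 and 0.0118, and PSBQ1, higher, all against GHsf B3 alone); and 0 with probe sets over the median, without both B3 arrays and at the adjusted p. In GHsf : GWt it stayed 2, but without RBCS, with the B3 arrays averaged (PSBO2 and LHCB4.2) and with an intensity trend (PSBO2 and LHCB4.1). In FHsf : FWt it was 1 after quantile normalization, with an offset of 32 or a suffix term, and 2 with canister B only. In FWt : GWt it was 1 with canister B only or a suffix term. In the interaction it was 1 with a suffix term, 2 without the arrays with the suffix and 1 without both B3 arrays. Leaving out single plates gave 0 to 1 in FWt : GWt, 0 to 1 in FHsf : GHsf, 1 to 2 in GHsf : GWt, 0 to 2 in FHsf : FWt and 0 to 1 in the interaction. The members' median in FHsf : GHsf was 0.21 over the brighter members. The causes were not tested.

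With plate position as a replicate block, 0 members passed in FHsf : GHsf, FWt : GWt and the interaction; for the genotype comparisons this fit could not be made. Same-numbered plates shared only a number, with correlations of their deviations of -0.04 to 0.12.

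Among the 9 members named by rule, log2 fold changes that changed sign were LHCB1.4/LHCB1.5 in FWt : GWt (0.023 after quantile normalization, 0.17 with 16 arrays, 1.013 with canister B only), PSBO1 in the interaction (1.20 without the suffix arrays), PSBO2 in FHsf : GHsf (0.10 without the suffix arrays), and, with canister B only, PSBO2 in FWt : GWt (0.73) and the interaction (-1.03) and RBCS in FWt : GWt (-0.32). Over single plates left out, ranges of these 9 members that crossed 0 were -0.018 to 1.52 (LHCB1.4/LHCB1.5, FHsf : FWt), -0.81 to 0.58 (LHCB1.4/LHCB1.5, FWt : GWt), -0.51 to 1.94 (PETC, FHsf : FWt), -2.30 to 0.020 (PSBY, FHsf : FWt), -0.58 to 1.16 (PSBY, FWt : GWt), -1.56 to 0.0062 (RBCS, FHsf : GHsf) and -0.0047 to 1.04 (RBCS, FWt : GWt). None of these had passed. The median over all members crossed 0 in FWt : GWt (-0.25 to 0.07), FHsf : FWt (-0.29 to 0.17) and the interaction (-0.18 to 0.15).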
